A study of Mus musculus with 109 samples.

Results

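The 10 genes described here encode tubulin isotypes, 3 of alpha-tubulin (Tuba1a, Tuba1b and Tuba1c) and 7 of beta-tubulin (Tubb2a, Tubb2b, Tubb3, Tubb4a, Tubb4b, Tubb5 and Tubb6). They were chosen by name from the 15973 genes of a raw count table, and all 10 were listed in it. The table held 109 single cells prepared from the cerebella of C57BL/6 mice at postnatal day 7 (P7) by Percoll density gradient centrifugation, which enriches granule cell progenitors (GCPs). No cell was treated or carried a stated mutation. The cells were captured on C1 Fluidigm chips, and each gave its own library. The sample labels formed 6 library groups of 18 to 19 cells, and nothing in the labels said that these came from separate animals, so p-values over library groups measure a spread that may be technical.

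Microtubules are hollow polymers of alpha-tubulin and beta-tubulin dimers, nucleated by a ring of gamma-tubulin. Dividing cells build the spindle from them, and neurons build axons and dendrites from them. The isotypes differ mainly in the acidic tail at the end of the protein, where glutamylation and tyrosination take place, and in where they are expressed. In the developing cerebellum, GCPs divide in the outer external granule layer, leave the cell cycle and extend axons as postmitotic granule cells.

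The ends of the coding sequences, which encode the tails, are shown for 6 beta isotypes because the tails are the stretch by which isotypes are usually told apart. The sequences are from GENCODE M21 transcripts, 5′ to 3′ with the stop codon. Capitals mark the bases after coding base 1278, up to which a short run is the same in all 6:
Tubb2a: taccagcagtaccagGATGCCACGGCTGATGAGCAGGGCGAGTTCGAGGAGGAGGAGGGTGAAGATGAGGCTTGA
Tubb2b: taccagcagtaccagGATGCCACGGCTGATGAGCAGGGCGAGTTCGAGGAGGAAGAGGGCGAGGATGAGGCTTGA
Tubb3: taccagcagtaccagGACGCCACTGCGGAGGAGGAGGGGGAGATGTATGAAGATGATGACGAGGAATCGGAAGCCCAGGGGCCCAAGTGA
Tubb4a: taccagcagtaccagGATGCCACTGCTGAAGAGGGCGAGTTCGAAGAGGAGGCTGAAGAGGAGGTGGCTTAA
Tubb4b: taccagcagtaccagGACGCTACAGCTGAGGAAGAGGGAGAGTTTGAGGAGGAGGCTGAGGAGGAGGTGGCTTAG
Tubb5: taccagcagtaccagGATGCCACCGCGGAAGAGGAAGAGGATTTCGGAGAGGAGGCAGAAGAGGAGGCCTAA

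Near-identical sequence bears on the counts, since a read that fits several genes may be dropped or misplaced. How such reads were counted is not given in the sources used here. Before the tails, the coding sequences of Tuba1a and Tuba1b were 98.3% identical, those of Tuba1b and Tuba1c 99.38% and those of Tubb2a and Tubb2b 96.55%. The other pairs of beta isotypes ranged from 81.13% (Tubb5 and Tubb6) to 87.74% (Tubb3 and Tubb6). Of all 50-base windows of the longest coding transcript, 16.9% were found in no other gene's transcripts for Tuba1b, 24.5% for Tuba1a, 39.0% for Tuba1c, 44.5% for Tubb4b, 50.4% for Tubb2a and 60.7% for Tubb2b. For Tubb3, Tubb4a, Tubb5 and Tubb6 the unique share was at least 99.8%. Values of the alpha isotypes, the Tubb2 pair and Tubb4b are therefore uncertain to the extent that their reads were split with a copy. The windows were compared with transcripts only, so copies in untranscribed sequence were not searched.

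On GRCm38, the assembly also called mm10, the alpha genes lie together on chromosome 15, with Tuba1b at 98931425 to 98934565 and Tuba1a at 98949837 to 98953703, both on the minus strand, and Tuba1c at 99029891 to 99038110 on the plus strand. Tubb2a (34074274 to 34078007) and Tubb2b (34126748 to 34130466) are neighbours on the minus strand of chromosome 13. Tubb5 (35833921 to 35838306) and Tubb4a (57080066 to 57087782) lie on the minus strand of chromosome 17. Tubb3 lies on the plus strand of chromosome 8 (123411424 to 123422015), Tubb6 on the plus strand of chromosome 18 (67390717 to 67402749) and Tubb4b on the minus strand of chromosome 2 (25222160 to 25224702). Each longest coding transcript has 4 exons, and counts were made over exons. The annotated gene Gm49450, on the same strand, shares 473 exon bases with Tuba1a and 426 with Tuba1b. Gm41396 and Fam166a overlap exons of Tuba1b (87 bases) and Tubb4b (121 bases) on the other strand. The counting strand is not given in the sources used here, and none of these overlapping genes is listed in the table.

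A cell held between 15071 and 8616017 counts (median 3604792), and all but the shallowest held at least 1110182. In 5 cells at least 5 of 8 astroglial markers reached 50 CPM (counts scaled to a fixed total for each cell), and 3 cells had an unusual depth (2 with over 10000 genes detected and 1 under 100000 counts). Cells with Mki67, which encodes the proliferation antigen KI67, at 100 CPM or more were called Mki67-high (32 cells), and cells under 10 CPM were called Mki67-low (75 cells). The lowest Mki67-high cell had 132 CPM, the highest Mki67-low cell had 9.27 CPM, and 2 cells between the limits were in neither class. Low Mki67 counts were common, since 57 of the 75 Mki67-low cells had a count and 49 of them had 1 to 5. Top2a, a DNA topoisomerase of dividing cells that the split did not use, had a median of 818 CPM in Mki67-high and 1.10 CPM in Mki67-low cells. However, it reached 50 CPM in 12 of 75 Mki67-low cells, with a maximum of 5592 CPM. Pcna, a GCP marker of the study, did so in 19 of 75 Mki67-low and 15 of 32 Mki67-high cells. Ccna2, Ccnb1, Cdk1 and Birc5 reached 50 CPM in 1 of 75 Mki67-low cells each, and Mcm5 in 4. Some Mki67-low cells may therefore still be cycling. Mki67-high cells held a median of 4967 detected genes against 4193 in Mki67-low cells, and 3 of the astroglial cells, 2 of them with over 10000 genes detected, were among them. Neurod1, a granule lineage transcription factor, had a count in 109 of 109 cells.

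Tuba1a, Tubb5 and Tubb3 were the main tubulin mRNAs of these cells. Tuba1a, the main alpha-tubulin of developing neurons, had a count in 109 of 109 cells and a median of 1974 CPM (range 42.5 to 9685). Tubb5, the widely expressed class I beta-tubulin, was detected in 109 cells at a median of 3197 CPM (62.2 to 15723). Tubb3, the class III beta-tubulin used as a marker of neurons, was also detected in 109 cells, with a median of 1020 CPM (0.860 to 8642). It was at 100 CPM or more in 80 of them, so detection alone did not separate cells. Among the minor isotypes, Tuba1b was detected in 103 cells (94.5%, Wilson 95% interval 88.5% to 97.5%), Tubb2b in 100, Tubb4a in 98, Tubb2a in 89, Tuba1c in 68 and Tubb4b in 58. The interval treats the cells as independent and leaves out the spread between library groups. Tubb6 had a count in 19 cells, of which 15 held 1 to 5 counts.

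The minor beta isotypes were unevenly spread over cells. Tubb4a, the class IV beta-tubulin of mature neurons and oligodendrocytes, had a median of 1.02 CPM, but 28 cells had 100 CPM or more and the highest had 7015 CPM. Tubb2a, a class II isotype of neurons, ranged from 0 to 2420 CPM with 41 cells at 100 CPM or more. Tubb2b, the other class II isotype, ranged from 0 to 1453 CPM with 28 such cells. A median of 4 beta isotypes reached 10 CPM in a cell.

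To compare levels between genes, CPM were divided by the length of all annotated exons in kilobases (kb), and the mean over cells was taken in each library group. Tuba1a was at 1411 ± 506 CPM per kb (SD, n = 6 library groups), Tubb5 at 1078 ± 176 and Tubb3 at 807 ± 298. Then came Tubb4a (128 ± 36.9), Tubb2a (119 ± 55.8), Tuba1b (70.9 ± 29.5), Tubb2b (46.7 ± 19.1), Tubb4b (32.1 ± 16.2), Tuba1c (5.64 ± 5.82) and Tubb6 (0.636 ± 1.10). Neighbours in this order changed places between library groups, except that Tubb3 lay above Tubb4a and Tubb4b above Tuba1c in 6 of 6. The order of Tuba1a over Tubb5, and of Tubb5 over Tubb3, held in 4 of 6. The level depends on the length used, as the exons of Tubb5 cover 3327 bases while its longest coding transcript has 2649.

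The first comparison asked which isotypes differ between Mki67-high and Mki67-low cells. Tuba1b and Tubb4b were higher in Mki67-high cells in 6 of 6 library groups, and Tuba1a and Tubb3 were lower in 6 of 6. For Tubb3 this depended on the pseudocount, since with 10 in place of 1 it was lower in 5 of 6 and library group 6 was at 0.17. Tubb5 lay at similar levels in both classes. None of the 9 members tested passed the threshold of edgeR's quasi-likelihood test (adjusted p under 0.01), in which the counts of all cells of one class and library group were added up. That test called 2 of 9084 genes (0.022%), the mitotic genes Tacc3 and Cdc20, which are not members. Tacc3, a spindle protein, had a log2 fold change of 9.88 (adjusted p = 0.001227), and Cdc20, which activates the anaphase-promoting complex, one of 11.08 (adjusted p = 0.006089).

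Tuba1b, a widely expressed alpha-tubulin, had a median of 246 CPM in Mki67-high cells (range 0 to 648) and 30.1 CPM in Mki67-low cells (0 to 422). It was at 100 CPM or more in 29 of 32 Mki67-high cells and in 18 of 75 Mki67-low cells. In the sums by library group, its CPM had a minimum of 125, a median of 318 and a maximum of 374 in Mki67-high cells, against 26.0, 57.4 and 94.7 in Mki67-low cells. The classes did not overlap in any library group's sum. Such a separation, with the Mki67-high class above, was found for 57 of 9084 genes (0.627%). The sums differed by 2.11 on the log2 scale (SE 0.76), with an adjusted p of 0.550 in edgeR. DESeq2 gave 2.402 (adjusted p = 0.004973) and limma-trend on cell means gave 3.26 (adjusted p = 0.007148), so the call rested on the method. DESeq2 called 1.89% and limma-trend 0.881% of the genes tested.

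Another measure gave each cell the same weight, by taking the difference between class means of log2(CPM + 1) within each library group. For Tuba1b this difference was 3.26 ± 0.88 (SD, n = 6), between 2.29 and 4.66, and positive in 6 of 6 library groups. Its exact two-sided sign-flip p was 0.03125, the smallest that 6 library groups allow, and 0.407 after adjustment over 11473 genes. Of those genes, 762 (6.64%) were higher in Mki67-high cells in 6 of 6 library groups and 119 (1.04%) were lower, and their median difference was 0.30. Of the 10 members, 2 were higher and 2 lower in 6 of 6.

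Tuba1a had medians of 1306 CPM in Mki67-high and 2532 CPM in Mki67-low cells. The sums ran from 708 over a median of 1241 to 2276 CPM in Mki67-high cells and from 1660 over 2812 to 4296 CPM in Mki67-low cells. These ranges overlapped, although the Mki67-high sum was the lower in each library group. Its log2 fold change was -1.17 ± 0.34 (SE, edgeR adjusted p = 0.436), and the mean difference over cells was -1.27 ± 0.89 (n = 6, exact sign-flip p = 0.03125, adjusted p = 0.407). Library groups 3 and 6 showed the smallest differences, at -0.22 and -0.32. Tuba1c, a further widely expressed alpha-tubulin, was sparse, with medians of 0.432 and 0.269 CPM. It reached 10 CPM in 10 of 32 Mki67-high cells and in 1 of 75 Mki67-low cells, and its mean difference was 1.68 ± 1.29, positive in 5 of 6 library groups (exact sign-flip p = 0.0625).

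**Figure D1:**
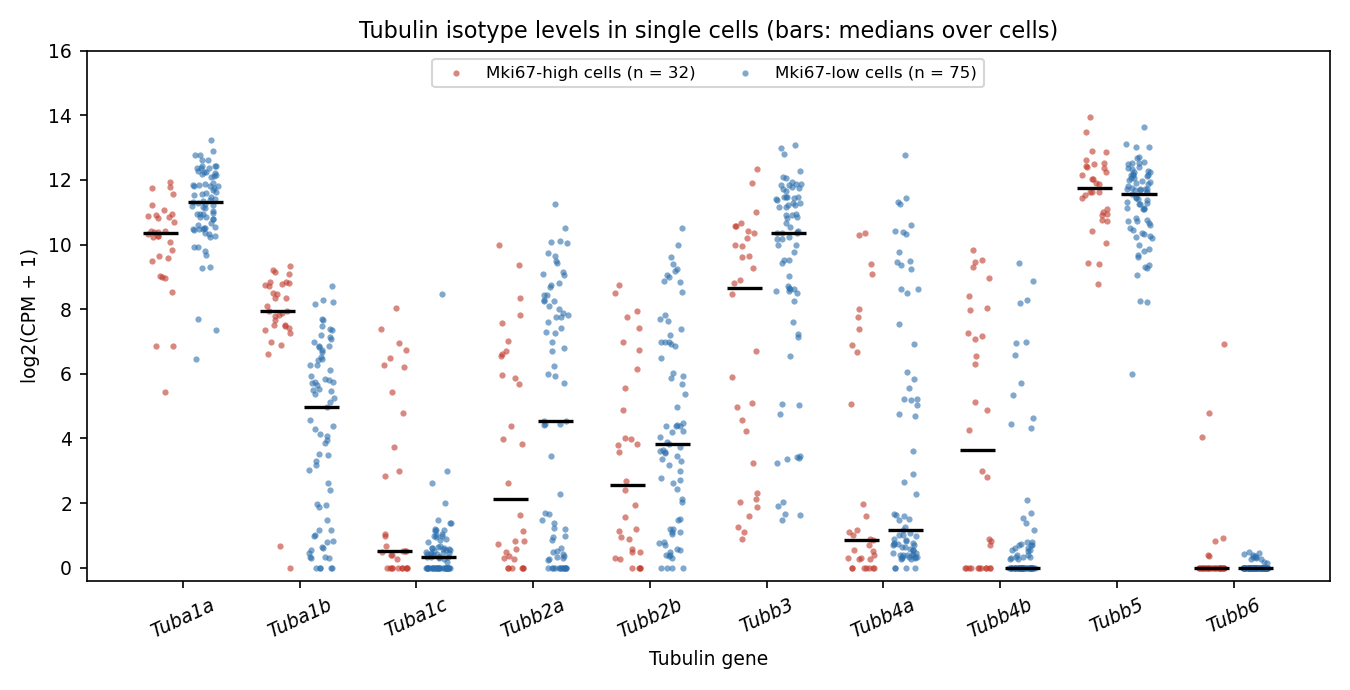
Level of each tubulin gene in every cell on the log2(CPM + 1) scale, with Mki67-high cells in red, Mki67-low cells in blue and black bars at the medians over cells. Tuba1b lies between 0 and 648 CPM with a median of 246 CPM in the 32 Mki67-high cells and of 30.1 CPM in the 75 Mki67-low cells, while Tubb5 spans similar ranges in both classes.

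Among the beta isotypes, Tubb3 was at a median of 403 CPM in Mki67-high cells (range 0.860 to 5195) and 1312 CPM in Mki67-low cells (1.80 to 8642). The Mki67-high cells were mixed, with 18 of 32 at 100 CPM or more and 9 under 10 CPM. The sums had a minimum of 368, a median of 688 and a maximum of 1564 CPM in Mki67-high cells, against 1080, 2029 and 2886 CPM in Mki67-low cells. The ranges overlapped through library group 6, in which Mki67-high cells had the 1564 CPM. The log2 fold change was -1.48 ± 0.40 (SE, edgeR adjusted p = 0.370), and the mean difference over cells was -2.22 ± 1.54 (n = 6, exact sign-flip p = 0.03125, adjusted p = 0.407). In library group 6 the difference was -0.06.

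Tubb4b, a widely expressed class IV isotype, had a median of 12.6 CPM in Mki67-high cells and 0 in Mki67-low cells. It reached 100 CPM in 11 of 32 Mki67-high and 6 of 75 Mki67-low cells. The sums had a minimum of 58.9, a median of 204 and a maximum of 376 CPM in Mki67-high cells, against 0.276, 27.1 and 85.7 CPM in Mki67-low cells, with an overlap at the low end. The log2 fold change was 2.42 ± 1.16 (SE, edgeR adjusted p = 0.692). The mean difference over cells was 3.09 ± 1.91 (exact sign-flip p = 0.03125, adjusted p = 0.407), of which library group 4 had the highest, 6.89, and the others lay between 1.95 and 2.89.

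Tubb5 had medians of 3482 CPM in Mki67-high cells and 3027 CPM in Mki67-low cells. Its log2 fold change was 0.17 ± 0.25 (SE, edgeR adjusted p = 0.918). The mean difference of 0.32 ± 0.83, positive in 4 of 6 library groups (exact sign-flip p = 0.406), was near the median of 0.30 over all genes. With the size factors of DESeq2 in place of TMM, the median log2 fold change of all genes moved from -0.18 to 0.09. Relative to that median, Tubb5 was at 0.35 and 0.34, Tuba1b at 2.29 and 2.31, and Tubb3 at -1.30 and -1.25 under the 2 scalings.

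Tubb2a, Tubb2b and Tubb4a did not differ beyond the spread between library groups. The mean difference was -1.12 ± 2.42 for Tubb2a, -1.20 ± 1.88 for Tubb2b and -0.74 ± 1.48 for Tubb4a, and exact sign-flip p ranged from 0.1875 to 0.3125. Tubb6 was below edgeR's filter on low counts. It reached 10 CPM in 3 of 32 Mki67-high cells and in 0 of 75 Mki67-low cells, with a mean difference of 0.44 ± 0.64 on the log2(CPM + 1) scale. As tubulin was measured relative to the total count, a change in the RNA of a cell as a whole cannot be told apart from these differences.

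**Figure D2:**
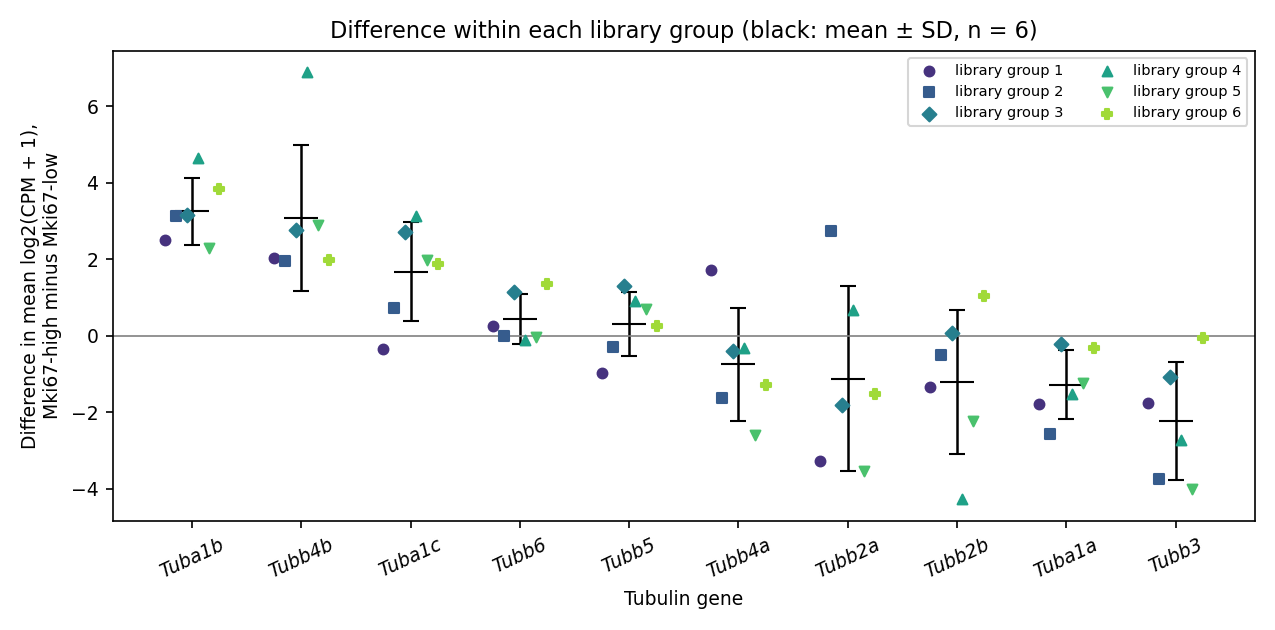
Difference in mean log2(CPM + 1) between Mki67-high and Mki67-low cells within each of the 6 library groups (coloured symbols), with the mean and SD over library groups in black. Tuba1b (mean 3.26) and Tubb4b (3.09) lie above 0 and Tuba1a (-1.27) and Tubb3 (-2.22) below 0 in each library group, while library group 6 of Tubb3 lies at -0.06.

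The differences in level were followed by differences in composition. The share of an isotype was its count per kb of exon over that of all alpha or all beta members in the same cell. Of alpha-tubulin, Tuba1b made up 21.8% ± 13.3 in Mki67-high and 4.15% ± 3.11 in Mki67-low cells (SD over 6 library groups). Its lowest, median and highest library group means were 9.80%, 18.5% and 48.1% in Mki67-high cells and 0.957%, 3.62% and 9.34% in Mki67-low cells, so the classes did not overlap. The mean difference was 17.7 ± 12.98 percentage points and positive in 6 of 6 library groups (exact sign-flip p = 0.03125), and without library group 2 it was 12.7. Tuba1a took nearly all of the remainder, with 76.6% ± 13.1 against 95.6% ± 2.89, a difference of -19.0 ± 12.9 points that was negative in 6 of 6. With counts divided by the number of unique windows in place of exon length, the difference for Tuba1b was 22.2 points. This changed the lengths only and not the reads, so it cannot show how reads were split between the genes. Tuba1a was the largest alpha isotype in 105 of 109 cells, and Tuba1b in 4, of which 3 were Mki67-high.

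Of beta-tubulin, Tubb5 made up 66.2% ± 9.81 in Mki67-high and 46.8% ± 11.8 in Mki67-low cells, and Tubb3 made up 20.9% ± 9.40 and 35.7% ± 12.6. The library group means of Tubb5 ran from 57.3% over 63.4% to 82.9% in Mki67-high cells and from 32.2% over 47.7% to 59.2% in Mki67-low cells. The difference was 19.4 ± 19.9 points for Tubb5 (5 of 6 library groups, exact sign-flip p = 0.0625) and -14.8 ± 14.3 points for Tubb3 (5 of 6, p = 0.09375). Neither share was shifted in every library group, and both ranges overlapped. Library group 6 was the one that went the other way for both. Without it the differences were 23.5 and -18.2 points, in 5 of 5 library groups each. Without the 5 astroglial cells the difference for Tubb5 was 18.7 points and positive in 6 of 6. Tubb5 was the largest beta isotype in 26 of 32 Mki67-high and 37 of 75 Mki67-low cells, and Tubb3 in 6 and 33. Tubb2a led in 3 Mki67-low cells, and Tubb2b and Tubb4a in 1 each.

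**Figure D3:**
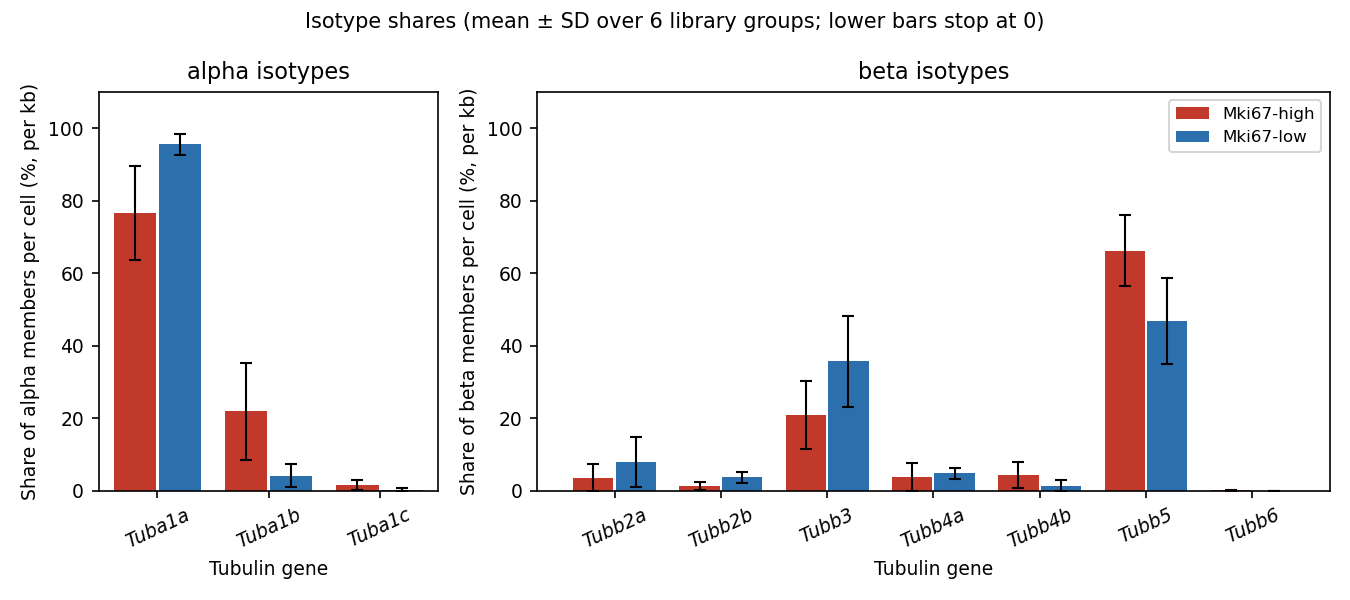
Mean share of each isotype among the 3 alpha members (left) and the 7 beta members (right), per kb of exon and in percent, with Mki67-high cells in red and Mki67-low cells in blue; error bars are SD over 6 library groups. The Tuba1b bars stand at 21.8% and 4.15%, and the Tubb5 bars at 66.2% and 46.8%.

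The summed level of the alpha members was lower in Mki67-high cells in 6 of 6 library groups, with a median over cells of 1606 CPM against 2556 CPM and a mean difference of -1363 ± 864 CPM. For the sum of the beta members the difference was -721 ± 1781 CPM, negative in 4 of 6 (exact sign-flip p = 0.344). All 10 members together had a median of 6453 CPM in Mki67-high and 8745 CPM in Mki67-low cells.

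Genes that nucleate, fold and modify tubulin were compared in the same way. Of 17 genes of the gamma-tubulin ring and of augmin, which starts microtubules on existing ones, edgeR called 0 of 16 tested, 3 had an unadjusted p under 0.05 with higher levels, and none had one with lower levels, where 2.87% and 4.27% of all genes did. Their median log2 fold change was 0.998, against -0.18 over all genes tested. Haus6 had a log2 fold change of 4.21 (adjusted p = 0.670), Tubgcp2 of 2.49 (adjusted p = 0.673) and Haus4 of 5.27 (adjusted p = 0.692). Over cells, 3 of the 17 were higher in 6 of 6 library groups, Tubgcp2 and, named after their values were seen, Haus3 and Mzt1, where 6.64% of all genes were. Tubg1, the main gamma-tubulin and the only one of 7 listed other tubulins detected widely enough for the test over cells, had a mean difference of 2.23 and was higher in 6 of 6 library groups (exact sign-flip p = 0.03125), with a log2 fold change of 0.99 in the sums (adjusted p = 0.892). Tube1, encoding epsilon-tubulin of centrioles, was at -0.69 in the sums.

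Of 20 listed folding genes, which encode prefoldin, the chaperonin CCT and the tubulin cofactors, edgeR called 0 of 19, and 0 had an unadjusted p under 0.05. The smallest belonged to the CCT subunits Cct3 (log2 fold change 1.15) and Tcp1 (1.22) and to the prefoldin subunit Pfdn4 (1.92). Over cells, 2 of 20 were higher in 6 of 6 library groups, Pfdn4 and, named after its value was seen, Cct2, against the 6.64% of all genes. Of 12 tested genes that modify tubulin, 0 were called and 1 had an unadjusted p under 0.05, Agtpbp1, a deglutamylase that shortens glutamate side chains (log2 fold change -2.95, adjusted p = 0.684). Tpgs2, a subunit of a polyglutamylase, was at -2.44 and Vash1, a detyrosinating peptidase, at -3.37. The median of that list was -1.30 in the sums but 0.132 as a difference over cells, where Agtpbp1 was at -0.66, Tpgs2 at -0.33 and Vash1 at -0.32, none of them lower in 6 of 6. Excess tubulin dimers trigger decay of tubulin mRNA through Ttc5, Scaper and the Ccr4-Not complex, and 0 of the 3 such genes tested were called. Ttc5 was at -1.50, Cnot1 at 0.41 and Scaper at -0.40.

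Markers of other cell states moved with the classes. Of 7 proliferation genes, 6 were higher in Mki67-high cells in 6 of 6 library groups. Of 6 young neuron genes 2 were lower in 6 of 6, Dcx (mean difference -2.61) and Gap43 (-2.55), and Sema6a, a guidance receptor, had a log2 fold change of -2.11 (adjusted p = 0.149). Of 8 astroglial genes none was higher or lower in 6 of 6. The sum of the astroglial genes ranged from 0 to 23011 CPM in Mki67-high cells (median 10.04) and from 0 to 41201 CPM in Mki67-low cells (median 3.35), and each of the 8 reached 50 CPM in some cell of either class. Without the astroglial cells and those of unusual depth, Tuba1b was still higher by 3.30 and Tubb4b by 2.79, while Tuba1a was at -1.42 and Tubb3 at -2.38, in 6 of 6 library groups each. Of 7 oligodendrocyte lineage genes none was higher or lower in 6 of 6, and their sum had a median of 59.1 CPM in Mki67-high cells (0 to 12229) and 6.36 CPM in Mki67-low cells (0 to 14839). Pdgfra, a receptor of oligodendrocyte precursors, had a log2 fold change of 2.23 (adjusted p = 0.683, edgeR) and reached 50 CPM in 12 of 32 Mki67-high and 10 of 75 Mki67-low cells. Cnp (-2.90) and Olig2 (-3.22) of the same list went the other way, and 4 of the 7 genes had a positive log2 fold change. Of 5 microglial genes, C1qb reached 50 CPM in 4 of 32 and 0 of 75 cells, and the sum of the list had a median of 0 in both classes. Of 4 listed genes of GABAergic and Purkinje cells, Pax2 and Gad1, markers of GABAergic interneurons, were lower in Mki67-high cells in 6 of 6. Among all genes, 1.04% were lower in 6 of 6. Gad2 (mean difference -0.11) and Calb1 (0.08) were not. Gad1 reached 50 CPM in 11 of 75 Mki67-low and 0 of 32 Mki67-high cells, and no fit left cells out for these markers. The part of these markers in the tubulin differences was not tested.

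The next comparison divided the Mki67-low cells by Rbfox3, and not all of these cells need have left the cell cycle. Rbfox3 encodes NeuN, a mark of maturing granule cells. Among Mki67-low cells, 32 with Rbfox3 at 100 CPM or more were set against 31 under 10 CPM. No member was higher or lower in 6 of 6 library groups, where 1.06% of genes were higher and 1.09% lower. edgeR called 0 of 5907 genes (0.0%), 258 (4.37%) of which had an unadjusted p under 0.05, and DESeq2 called 66 (1.12%), no member among them. Tubb3 had a median of 2138 CPM in Rbfox3-high cells (9.63 to 8122) and 518 CPM in Rbfox3-low cells (1.80 to 8642). The Rbfox3-low class alone held astroglial cells, 2 in number, without which its median was 869 CPM, and the astroglial sum had a median of 21.4 CPM in it against 2.43 CPM in Rbfox3-high cells. Tubb3 was under 10 CPM in 1 of 32 Rbfox3-high and 9 of 31 Rbfox3-low cells. Its mean difference of 2.18 ± 3.20 was positive in 4 of 6 library groups (exact sign-flip p = 0.219). Tuba1a had medians of 2671 and 1851 CPM and a mean difference of 0.58 ± 0.69, positive in 5 of 6 (exact sign-flip p = 0.0625). Without the astroglial cells and those of unusual depth, the Rbfox3-low median was 1980 CPM. The difference was then 0.39 ± 0.57 and positive in 4 of 6 (exact sign-flip p = 0.125). Tuba1b had medians of 38.8 and 42.8 CPM, and Tubb4b 0 and 0.308 CPM.

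**Figure D4:**
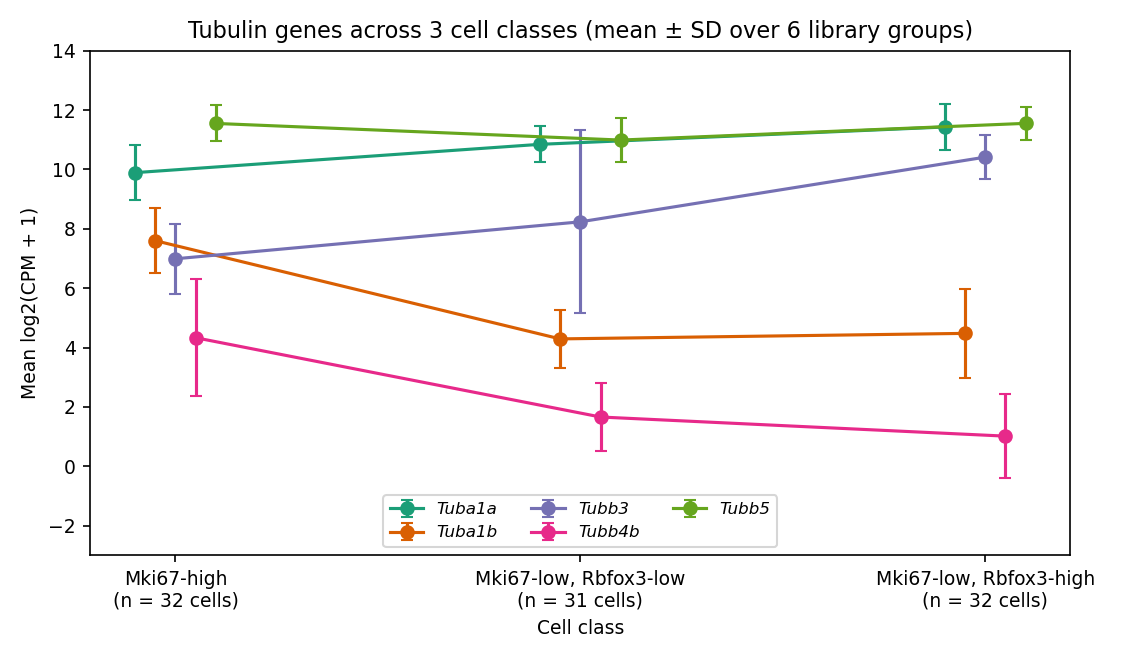
Mean log2(CPM + 1) of 5 tubulin genes in Mki67-high cells, in Mki67-low cells with Rbfox3 under 10 CPM and in Mki67-low cells with Rbfox3 at 100 CPM or more, with SD over 6 library groups; lines only join points of the same gene. Tuba1b stands at 7.60, 4.29 and 4.48, and Tubb3 at 6.99, 8.24 and 10.42 with the widest error bar in the middle class.

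Read across the 3 classes, Tuba1b and Tubb4b were high in Mki67-high cells and low in both Mki67-low classes, whereas Tubb3 was highest with Rbfox3. Mean log2(CPM + 1) of Tuba1b was 7.60 ± 1.11, 4.29 ± 0.98 and 4.48 ± 1.49, and that of Tubb4b 4.33 ± 1.97, 1.66 ± 1.16 and 1.02 ± 1.43. For Tubb3 it was 6.99 ± 1.18, 8.24 ± 3.08 and 10.42 ± 0.74. When the Mki67-low class was taken without Rbfox3-high cells, the difference for Tuba1a was -1.09 and for Tubb3 -1.55, neither in every library group, while Tuba1b and Tubb4b kept the same sign in 6 of 6. A trend along these classes was not tested.

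Within the Mki67-high class, cells with Ccnb1, the cyclin of late cell cycle phases, at 100 CPM or more (12 cells) were set against cells under 10 CPM (14 cells). Library group 4 had no Ccnb1-low cell, so 5 library groups entered the differences within library groups, for which the smallest exact p is 0.0625. Its Ccnb1-high cells stayed in the medians over cells and in the sums for edgeR and DESeq2. The Ccnb1-high class held all 3 of the Mki67-high astroglial cells, and the Ccnb1-low class held none. Tubb2b and Tubb4a were higher in 5 of 5 library groups, as were 2.73% of genes, and no member was lower in 5 of 5, as were 0.157%. The mean difference was 3.86 ± 2.06 for Tubb2b and 4.28 ± 2.85 for Tubb4a (exact sign-flip p = 0.0625 each, adjusted p = 0.856). Library groups 1 and 2 held 1 Ccnb1-high cell each and had the highest differences for Tubb4a, 7.34 and 6.32. Without the astroglial cells and those of unusual depth, Tubb2b was higher in 5 of 5 (4.43), but Tubb4a in 3 of 5 (2.42), and with a pseudocount of 10 Tubb4a was higher in 4 of 5. The summed CPM of the 8 astroglial markers was 0.188 to 23011 in Ccnb1-high cells (median 2.86) and 0.399 to 1418 in Ccnb1-low cells (median 50.8).

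Tubb4b had a median of 143 CPM in Ccnb1-high cells and 0.308 CPM in Ccnb1-low cells, and it reached 10 CPM in 10 of 12 and 2 of 14. Its mean difference of 4.47 ± 4.21 was positive in 4 of 5 library groups, and library group 6 stood against it with -1.06 (exact sign-flip p = 0.188). Without the astroglial cells and those of unusual depth it was 3.60 ± 6.04 and positive in 3 of 5. Tuba1c had medians of 57.8 and 0.0998 CPM and reached 10 CPM in 8 of 12 and 1 of 14 cells. Its mean difference was 2.04 ± 2.80, positive in 4 of 5 library groups (exact sign-flip p = 0.188), with library group 2 at -1.16. Tuba1b was present in both classes, with medians of 260 and 181 CPM. Tuba1a (1375 and 1505 CPM) and Tubb3 (546 and 45.8 CPM) were higher in 2 and lower in 3 of the 5 library groups. edgeR called 0 of 6217 genes (0.0%), 395 (6.35%) of which had an unadjusted p under 0.05. DESeq2 called 81 (1.3%), with no member among them.

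The study divided the cells of its progenitor cluster by Notch2, a receptor of the Notch pathway. Here Notch2 split the Mki67-high cells instead, and counts were summed by library group for edgeR and DESeq2. The numbers of genes called are therefore not comparable with those of the study. The Notch2-positive class held 20 cells with at least 1 count, again with all 3 astroglial cells, and the Notch2-negative class held 12, none of them in library group 4. In the 5 library groups with both classes, Tubb5 was higher with Notch2 in 5 of 5. Its medians over all cells of each class were 4378 and 1957 CPM. Its mean difference was 1.25 ± 0.45, from 0.65 to 1.87 (exact sign-flip p = 0.0625, adjusted p = 0.709), and 5.64% of genes were higher and 0.209% lower in 5 of 5, with no member among the lower. The same 1.25 was found without the astroglial cells and those of unusual depth. Tuba1c was also higher in 5 of 5, by 1.36 ± 1.03, but at low levels, with medians of 3.55 and 0.295 CPM. Its difference in library group 1 was 0.13, and with a pseudocount of 10 its mean difference was 0.49 ± 0.42. By edgeR, the log2 fold change of Tubb5 was 0.24 (adjusted p = 0.955).

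In 4 of 5 library groups Tubb3 was lower with Notch2, with medians of 255 and 763 CPM. Without the astroglial cells and those of unusual depth, the Notch2-positive median was 58.6 CPM and the direction held in 4 of 5. In the sums Tubb3 had a minimum of 2.67, a median of 449 and a maximum of 1008 CPM over the 6 library groups with Notch2-positive cells. Over the 5 with Notch2-negative cells these were 49.98, 1381 and 5195 CPM, and library groups 1 and 6 held 1 such cell each. Library group 4, without Notch2-negative cells, was also in the medians over cells and in the fits of edgeR and DESeq2. The ranges overlapped, and library group 3 went the other way. The mean difference was -3.69 ± 4.43 (exact sign-flip p = 0.125). edgeR gave -2.62 ± 1.18 on the log2 scale (SE, adjusted p = 0.368) and called 0 of 6912 genes (0.0%), 785 (11.4%) of which had an unadjusted p under 0.05. DESeq2 gave -3.73 (adjusted p = 0.009671) and called 4.15% of genes. Medians of the total count were 4478932 in Notch2-positive and 3228263 in Notch2-negative cells. The part of depth in these differences was not tested.

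Across the 109 cells, the isotypes varied mostly apart from each other. The highest Spearman correlation between members was 0.477, for Tuba1a and Tubb3, and it was positive in 6 of 6 library groups. Tuba1a and Tuba1b had -0.321, negative in 6 of 6, but -0.005 among Mki67-high and -0.079 among Mki67-low cells. Tuba1b and Tubb4b had 0.249. Within Mki67-high cells, Tuba1c and Tubb5 had 0.622, against -0.184 in Mki67-low cells. These values share depth and library between genes and are descriptions only.

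Among 3259 genes detected in at least 50% of the cells, those most like Tuba1a were the processed pseudogenes Gm14150 (Spearman 0.683) and Gm5620 (0.637), then Dpysl2 (0.489), which encodes a tubulin-binding protein of growing axons. By sequence, however, both pseudogenes were closest to Tuba1b, with which Gm14150 shared 62.5% of its 50-base windows and Gm5620 43.9%, while their Spearman correlations with Tuba1b were -0.032 and 0.016. Their counts were 1.13% and 1.12% of that of Tuba1b, and the 6 listed alpha-tubulin pseudogenes together came to 0.164% of the Tuba1a count. Most like Tuba1b were AC055772.1 (0.578), the chromatin protein gene Hmgn2 (0.565) and the processed pseudogene Gm10075 (0.561). Tubb4b was most like Gm8203 (0.464), another processed pseudogene, Hmgb2 (0.427) and Kif23 (0.413), a kinesin of cytokinesis. Tubb3 was most like Tuba1a, Cep170 (0.387) and Elavl3 (0.382), an RNA-binding protein of neurons. Tubb5 had Ddx39 (0.402), Ddah2 (0.376) and Mrfap1 (0.360). Most like Tubb2b were Gm14150 (0.434), Tuba1a (0.431) and Gm5620 (0.404). Tubb2a had Adam23 (0.394), Adamtsl3 (0.373) and Prkcb (0.341), Tubb4a had Trpc4ap (0.367), Myo9b (0.351) and Rsl1d1 (0.346), and Tuba1c had Wtap (0.395), Phf20 (0.388) and Cdkn1b (0.386).

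The promoter of Tubb4b is shown because Tubb4b was higher in Mki67-high cells and because its window held more CCAAT motifs than that of any other member matched, a choice made after the values were seen. It is the 250 bases before the gene's start, chr2:25224703-25224952, minus strand, from RefSeq on GRCm38.p6. Capitals mark CCAAT, bound by NF-Y, and the CHR element TTTGAA, found in genes of the late cell cycle:
Tubb4b: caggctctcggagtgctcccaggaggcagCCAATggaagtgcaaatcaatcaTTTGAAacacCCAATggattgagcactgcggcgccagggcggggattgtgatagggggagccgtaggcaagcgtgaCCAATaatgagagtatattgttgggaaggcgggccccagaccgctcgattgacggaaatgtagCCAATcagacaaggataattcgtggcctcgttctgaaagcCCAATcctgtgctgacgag
CCAAT began 221, 188, 122, 59 and 19 bases before the start, and TTTGAA 198 bases before it, and no match overlapped another. Both strands were searched for each motif. Of 27025 promoter windows of 300 bases, 77 (0.285%) held at least 5 CCAAT, 37.9% held at least 1, 18.1% held TTTGAA and 7.12% held both motifs. Promoters were matched for 8 of the 10 members. Tubb5 had 2 CCAAT, Tuba1a, Tuba1c and Tubb3 had 1 each, and Tuba1b, Tubb2a and Tubb4a had 0, while TTTGAA was found in Tubb4b alone of the 8. TTTCCCGC and TTTGGCGC, forms of the E2F site, were in 0 of the 8 windows and in 1.63% of all. The SP1 motif GGGCGG, which is not in capitals above, was found 2 times each in Tubb4b, Tuba1b, Tubb2a, Tubb3 and Tubb5. Tuba1a had it 1 time, and 35.9% of all windows held it. An E-box (CAGATG or CAGCTG) was found in Tuba1b alone of the 8 and in 30.4% of all. These matches describe the letters of the windows and not binding.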

How the data were processed

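Cells of the GCP preparation were sequenced singly by Smart-seq, without molecular identifiers. The authors aligned reads to mm10 with STAR 2.4.1d, counted them per gene with HTSeq 0.6.1 and deposited raw counts. The annotation, the strand setting and the treatment of reads with several alignments are not given in the sources used here. Each listed gene had a count in at least 3 cells. Each of the 109 columns was matched to a sample by name, and cells were grouped into the 6 library groups of the sample titles.

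Counts were converted to CPM for class limits and levels. The limits for Mki67, Rbfox3 and Ccnb1 were 100 CPM and 10 CPM, and the genes that set a class were not tested in it. Counts were summed by class and library group, filtered with filterByExpr, scaled by TMM and compared with the quasi-likelihood test of edgeR 4.0.16 in R 4.3.3, with Benjamini-Hochberg adjustment over all genes tested and a call at 0.01. Differences of mean log2(CPM + 1), with a pseudocount of 1, were taken within library groups for 11473 genes detected in at least 10 cells and tested by exact two-sided sign-flip permutation. Shares needed at least 20 reads. DESeq2 1.42.0 and limma 3.58.1 were alternatives. The scripts were tested on simulated data. Annotation and transcripts were from GENCODE M21 and promoters from RefSeq. Coding ends of the alpha isotypes are not reported here.

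The members, lists and classes were chosen with earlier results of these data known. The text names all members, of each list of tubulin-related genes the 3 with the smallest unadjusted p, and the 3 genes with the highest Spearman correlation to each member detected in at least 50% of cells. Other alternatives were the library group as a block, each library group left out, other scaling, filters and thresholds, other Mki67 limits, thinned counts, cells with astroglial markers or of unusual depth left out, a pseudocount of 10, and other lengths or read minima for the shares.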

Additional observations from a re-analysis of the deposited data

Results flagged for a closer look

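Values of 6 library groups were searched for one that stood far from the others by Dixon's test, in 50 sets of members, classes and measures. This found 11 library groups, where chance flags about 5% of sets, or 1 in 20. The sets are not independent, since levels and shares come from the same counts, and no value was left out because of it.

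Library group 2 stood apart in 3 of them. In its Mki67-high cells the mean share of Tuba1b was 48.1% and that of Tuba1a 51.6%, and the sum of Tubb2a was at 322 CPM. Library group 4 stood apart in 3. Its difference for Tubb4b between Mki67-high and Mki67-low cells was 6.89 on the log2(CPM + 1) scale, and in its Mki67-low cells the sum of Tuba1c was at 21.9 CPM and its mean share at 1.22%.

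In library group 3, Mki67-low cells had Tubb2a at 692 CPM in the sum and at a mean share of 21.5%, and Tubb4b at a mean share of 4.78%. In library group 6, Mki67-high cells had Tubb3 at 1564 CPM in the sum and Tubb6 at a mean share of 0.288%.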

How the results depend on the processing

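Beside the 2 genes that edgeR called between Mki67-high and Mki67-low cells, the count was 6 at a threshold of 0.05, 172 with DESeq2, 80 with limma-trend, 17 with the newer quasi-likelihood fit of edgeR, 0 with either other limit for Mki67, and 1 each with thinned counts, without the astroglial cells, without cells of unusual depth and without both. It was 0 to 1 with each library group left out. With the library group as a replicate block it was 0, and the block changed no other call. The correlation of paired deviations was 0.05 to 0.144 in this comparison, and in 6 of 6 library groups each sum was most like that of its own library group, a hint from the data and not from the design. DESeq2 called 66 genes in the Rbfox3 comparison, 81 in the Ccnb1 comparison and 287 in the Notch2 comparison, where edgeR called 0. The causes were not tested.

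The number of members with the same sign in every library group was 4 for levels. It was 0 when cells with any Mki67 count were set against cells with none (5 library groups), 2 without Rbfox3-high cells, and 4 to 6 with a library group left out, the 6 without library group 1. In the comparison of any Mki67 count with none, the log2 fold change of the sums was 0.25 for Tubb2a and -0.35 for Tubb5, and the difference over cells was 0.36 for Tubb2a and 0.27 for Tubb4a, each against the sign first given. With a pseudocount of 10 Tubb3 was at -1.86 and lower in 5 of 6. For shares the number was 2, and 2 to 5 with a library group left out, the 5 without library group 6. The difference in the share of Tubb4a ran from -2.44 to 0.0185 points with a library group left out, positive only without library group 4. The alpha share of all members per kb was lower in Mki67-high cells in 5 of 6 library groups, and by raw counts in 6 of 6. The fits without both kinds of cell or without Rbfox3-high cells, the addition of pseudogene counts to Tuba1a and the alpha share by raw counts were chosen after seeing the data. Unique windows were taken from transcripts alone, as no genome was used. The low share of unique windows limits what can be said of Tuba1b and Tuba1a, and low counts limit Tuba1c, Tubb4b and Tubb6.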

Other observations

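In the autoregulation of tubulin mRNA, Ttc5 reads the first residues of the nascent protein. The first 12 coding bases, which encode them, were the same in the 3 alpha members and had 6 forms among the 7 beta members. These are forms of the bases only. In the beta members other than Tubb6 they all encode the same residues, Met-Arg-Glu-Ile.

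Tubb4b-ps1, a processed pseudogene that shares 52.4% of its 50-base windows with Tubb4b, had a count in 10 of 32 Mki67-high cells and 3 of 75 Mki67-low cells, with at most 6 counts in a cell. It had 29 counts in all, which is 0.0940% of the Tubb4b count, and its Spearman correlation with Tubb4b over 109 cells was 0.492.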
